A study of Mus musculus with 13 samples.

Results

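The 9 genes described here, Hnf4a, Foxa1, Foxa2, Foxa3, Cebpa, Cebpb, Onecut1, Prox1 and Nr5a2, encode transcription factors that set and maintain hepatocyte identity. They were selected by a list of gene symbols, matched to the gene IDs of the count table. All 9 were found among the 22048 genes of the count table, and all 9 were among the 13831 genes with enough counts to be tested. The data were RNA-seq read counts from 13 whole-liver samples of mice: 6 control livers not depleted of stellate cells, 4 livers depleted of hepatic stellate cells (the vitamin A-storing pericytes of the sinusoid, HSC in the labels), and 3 livers not depleted and taken 72 h after partial hepatectomy, an operation that takes out part of the organ. The controls were 3 males and 3 females, the depleted livers 1 male and 3 females, and the hepatectomised livers 2 males and 1 female. The title of the study concerns stellate cells, neurotrophin-3 and hepatocyte proliferation. Strain, age, genotype, the means of depletion and any operation on the controls are not given in the sources used here.

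Hepatocytes are specified and kept in their differentiated state by a small set of factors that bind one another's genes and act together at liver enhancers. FOXA proteins open compacted chromatin for other factors, HNF4A is a nuclear receptor needed for much of the metabolic programme, and C/EBP alpha and C/EBP beta are leucine-zipper factors that recognise the same DNA element. C/EBP alpha is known as a brake on hepatocyte division, and C/EBP beta is known for its part in the acute-phase response and in liver regeneration.

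The labelled tissue and treatment were checked against marker lists, each given as a summed CPM (counts scaled to the library total and normalised between libraries by TMM, edgeR's trimmed mean method). Summed hepatocyte markers (10 genes, Alb first) were 84541 to 157994 CPM in controls, 84131 to 184204 in depleted and 148310 to 205921 in hepatectomised livers, most of it Alb, with a control mean of 81172 CPM. Of these 10, Trf rose by 0.69 (adjusted p = 0.0111) and Hpd fell by 1.46 (2.83e-05) on the log2 scale in depleted livers, and Trf (0.94), Ahsg (0.71) and Fgb (1.63) rose in hepatectomised livers, with adjusted p of 0.0115, 0.0163 and 5e-05. Summed stellate cell markers (10 genes, Lrat first) were 217 to 631 CPM in controls and 275 to 477 in hepatectomised livers. In depleted livers they were 6.36 to 9.66 CPM in replicates 1 to 3 and 54.2 in replicate 4, and all 10 were lower than in controls by the test used here. Within the depleted group Des was at 0 counts in 3 libraries, Colec10 and Ngfr in 2 and Colec11 in 1. Summed myeloid markers (11 genes, Ptprc first) were 44.0 to 356 CPM in controls, 1205 to 1966 in depleted and 95.7 to 334 in hepatectomised livers. Control replicate 6 was lowest among controls for the hepatocyte, stellate and myeloid sums. In bulk tissue, fewer cells of a type and less RNA per cell cannot be told apart, and this holds for every value below.

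Against control, 4 of the 9 factors passed the test in depleted livers and 3 of 9 in hepatectomised livers. Foxa1, Cebpa and Nr5a2 fell and Cebpb rose after depletion. Cebpa fell and Foxa3 and Cebpb rose after hepatectomy. Across all tested genes, 33.9% passed in depleted livers (18.9% higher, 15% lower) and 8.42% in hepatectomised livers (6.06% higher, 2.36% lower). The groups' CPM ranges were apart for 3 factors in depleted livers (Foxa1 and Cebpa lower, Cebpb higher), where 28.4% of all genes had ranges apart, 16.5% higher and 11.9% lower, and for 3 in hepatectomised livers (Cebpa lower, Foxa3 and Cebpb higher), where the share of all genes was 13.7%, 7.41% higher and 6.25% lower. The median log2 fold change of the 9 factors was -0.10 in depleted and -0.40 in hepatectomised livers, beside -0.03 and -0.02 over all tested genes. These medians moved with single libraries. The depletion median ran from -0.25 without depleted replicate 3 to 0.034 without depleted replicate 4. The hepatectomy median ran from -0.49 without hepatectomised replicate 2 to -0.12 without hepatectomised replicate 1, and was -0.61 at the lowest of all alternatives. Both comparisons use the same 6 controls and are not independent of each other.

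**Figure D1:**
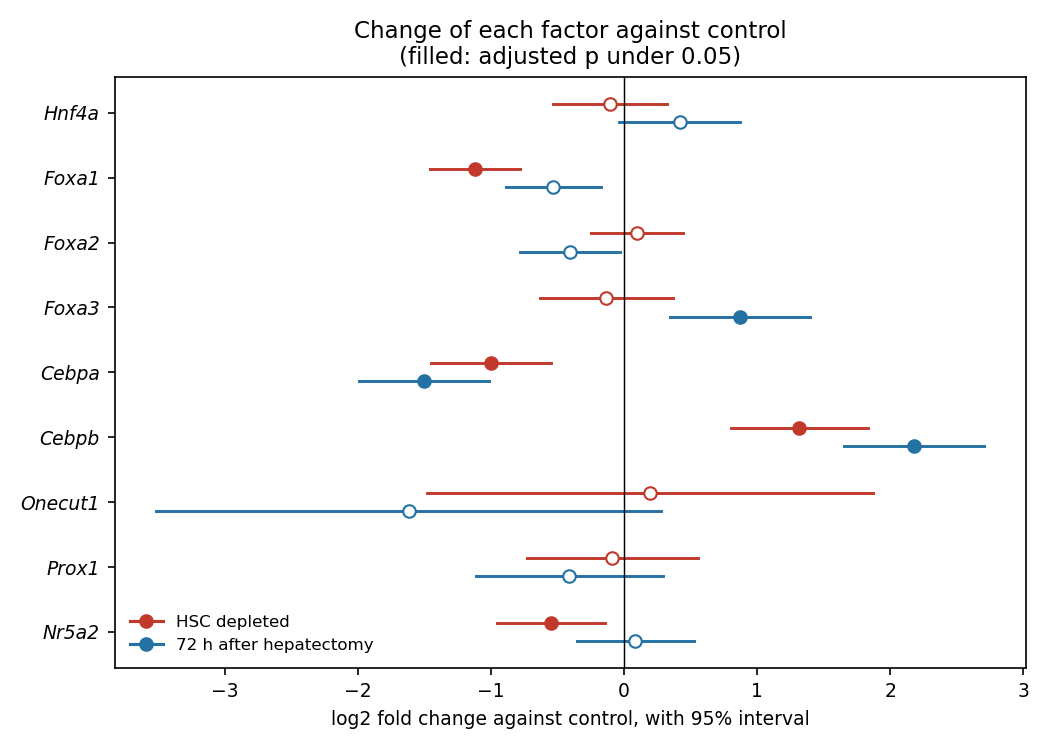
Log2 fold change against control of each factor in depleted livers (red) and hepatectomised livers (blue), with the 95% interval from edgeR's quasi-likelihood test; filled points have an adjusted p under 0.05. Cebpa lies below 0 and Cebpb above 0 in both comparisons, Foxa1 and Nr5a2 are filled in depleted livers alone, Foxa3 is filled in hepatectomised livers alone, and the Onecut1 intervals are the widest drawn.

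The upstream sequences of the 5 factors that passed a test against control are shown so that the motifs they hold can be read beside the expression values. Each window is 240 bases, from 250 to 11 bases before a RefSeq transcription start in GRCm38.p6, written 5′ to 3′ on the gene's strand. All 9 factors matched a RefSeq entry, with 14 windows between them. Capitals mark matches, on either strand, to the motifs named after the sequences. Nr5a2 is shown by the second of its windows, which holds the C/EBP match and lies inside the span of the gene. Its first window held no C/EBP match, only a TATA box match at 181 to 176 bases.
Cebpa, chr7:35119043-35119282, plus strand: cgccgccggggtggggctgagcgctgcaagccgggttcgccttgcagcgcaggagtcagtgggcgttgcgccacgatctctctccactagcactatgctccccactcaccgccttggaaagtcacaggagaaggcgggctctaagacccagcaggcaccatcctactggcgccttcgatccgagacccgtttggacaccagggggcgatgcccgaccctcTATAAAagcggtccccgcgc
Cebpb, chr2:167688665-167688904, plus strand: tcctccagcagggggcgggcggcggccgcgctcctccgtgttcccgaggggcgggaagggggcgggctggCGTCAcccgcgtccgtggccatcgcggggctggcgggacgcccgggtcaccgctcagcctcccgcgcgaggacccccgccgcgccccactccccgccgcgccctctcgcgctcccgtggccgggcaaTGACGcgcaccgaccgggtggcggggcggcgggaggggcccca
Foxa1, chr12:57546122-57546361, minus strand: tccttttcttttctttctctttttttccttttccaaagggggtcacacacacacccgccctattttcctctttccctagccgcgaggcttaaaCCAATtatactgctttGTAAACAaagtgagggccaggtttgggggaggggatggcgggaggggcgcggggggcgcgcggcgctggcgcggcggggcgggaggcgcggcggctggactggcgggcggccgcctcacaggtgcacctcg
Foxa3, chr7:19023550-19023789, minus strand: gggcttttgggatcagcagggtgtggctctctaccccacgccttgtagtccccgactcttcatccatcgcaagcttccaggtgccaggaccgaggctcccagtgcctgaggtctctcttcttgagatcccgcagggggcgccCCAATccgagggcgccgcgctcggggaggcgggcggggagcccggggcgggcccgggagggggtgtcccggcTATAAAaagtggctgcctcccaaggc
Nr5a2, chr1:136953641-136953880, minus strand: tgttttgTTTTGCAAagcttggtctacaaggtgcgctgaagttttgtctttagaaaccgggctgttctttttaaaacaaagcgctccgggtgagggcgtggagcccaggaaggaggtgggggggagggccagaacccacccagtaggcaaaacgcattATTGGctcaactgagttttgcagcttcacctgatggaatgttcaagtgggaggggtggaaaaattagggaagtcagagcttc

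The letters searched were TTGCNNAA for C/EBP, TGTTTAC for FOXA, CAAAGTCCA for HNF4, ATTGATT for ONECUT, CAAGGTCA for NR5A, CCAAT for the CCAAT box, CACGTG for the E-box, TGACG for the cyclic AMP response half-site and TATAAA for the TATA box. Among 32851 windows of the same length over all RefSeq genes, C/EBP letters occurred in 9.29%, FOXA in 3.06%, HNF4 in 0.37%, ONECUT in 2.56%, NR5A in 1.3%, CCAAT in 33.04%, the E-box in 5.69%, the half-site in 16.88% and TATAAA in 12.08%. The Foxa1 window held a FOXA match 141 to 135 bases before the start and a CCAAT box at 157 to 153. The Cebpb window held 2 half-sites, at 180 to 176 and at 53 to 49 bases, and was 82.1% G and C against a median of 52.1% over all windows. The Cebpa window held TATAAA at 30 to 25 bases, and the Foxa3 window held TATAAA at 36 to 31 and a CCAAT box at 108 to 104. The Nr5a2 window held a C/EBP match at 243 to 236 and a CCAAT box at 92 to 88, and no matches overlapped within these windows. A match describes letters only and shows neither binding nor a cause.

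Both members of the C/EBP pair passed in both comparisons, Cebpa lower and Cebpb higher than control. Cebpa (chr7:35119293-35121926, a gene with 1 exon, on GRCm38 as all positions here) stood at 273, 364 and 466 CPM as the lowest, median and highest of the controls. It was 158, 167, 138 and 244 CPM in depleted replicates 1 to 4, and 106, 129 and 144 CPM in hepatectomised replicates 1 to 3. Each depleted and each hepatectomised library lay below every control. Cebpa fell by 1.00 ± 0.21 (SE) on the log2 scale in depleted livers, 0.499 times the control level (edgeR quasi-likelihood test, Benjamini-Hochberg adjusted p = 0.00247). It fell by 1.5 ± 0.23 in hepatectomised livers, 0.353 times the control level (adjusted p = 0.00301). With females alone, 3 depleted against 3 control livers, the difference was -0.69 with adjusted p = 0.0671. The hepatectomy call was kept in all 17 alternatives run.

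Cebpb (chr2:167688915-167690418, 1 exon) was at 11.8, 21.2 and 30.3 CPM as the lowest, median and highest control. It reached 39.8, 36.1, 64.2 and 49.2 CPM in depleted replicates 1 to 4, and 59.4, 131 and 103 CPM in hepatectomised replicates 1 to 3. No library of either group overlapped the controls. Cebpb rose by 1.31 ± 0.24 (SE) on the log2 scale in depleted livers, 2.49 times the control level (adjusted p = 0.00102), and by 2.18 ± 0.24 in hepatectomised livers, 4.52 times the control level (adjusted p = 0.000407). Both calls were kept in every alternative run, 19 for depletion and 17 for hepatectomy. C/EBP beta is also made by macrophages and neutrophils. In depleted livers the summed myeloid markers lay above every control, and 10 of the 10 tested were higher. In hepatectomised livers the sum lay within the control range, but 3 of the 10 were higher. The other 7 did not pass there, and the median log2 fold change of the 10 was 0.01. S100a8, a neutrophil calprotectin gene, was at 0.09 to 0.47 CPM in controls, 31.3 to 78.1 CPM in depleted and 3.99 to 8.94 CPM in hepatectomised livers. Its partner S100a9 was at 0.18 to 0.944, 65.3 to 148 and 7.88 to 15.8 CPM, and the monocyte gene Cd14 at 0.78 to 3.39, 10.2 to 30.8 and 5.11 to 14 CPM. The part of these cells in the Cebpb values was not tested in either comparison.

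The Cebpb exon overlaps an exon of Tmem189, a protein-coding gene on the opposite strand that has its own counts. Tmem189 was 7.46 to 12.1 CPM in controls, 18.7 to 25.4 in depleted and 11.8 to 29.2 in hepatectomised livers, and rose by 1.22 (adjusted p = 0.00055) and 0.81 (adjusted p = 0.0353) on the log2 scale. The library kit kept strand, but the strand setting of the counting is not given in the sources used here, so reads of the 2 genes may not be fully separated. Cebpa and Prox1 overlap the antisense genes Gm45091 and Prox1os, whose reads may likewise not be fully separated. Onecut1 overlaps the non-coding gene Gm20649 on its own strand, where strand cannot separate the reads. Those 3 genes were not analysed here.

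Divided by gene length, Cebpa stood 7.01 to 13.2 times above Cebpb in controls, with a median of 10.7. The ratio was 1.23 to 2.83 in depleted livers, with a median of 2.46. In hepatectomised livers it was 0.566 to 1.02, with a median of 0.802. The ratios of the 3 groups did not overlap, and they are given as a description since both genes had already been tested singly. The sum of the 2 genes was 111 to 194 CPM per kilobase in controls, 86.7 to 125 in depleted and 79.7 to 136 in hepatectomised livers, and these ranges overlapped. Of other C/EBP genes, Cebpe, Cebpg and Ddit3 (3 of 4 listed) were tested and 0 passed in either comparison by edgeR's test. Cebpd was not analysed here.

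**Figure D2:**
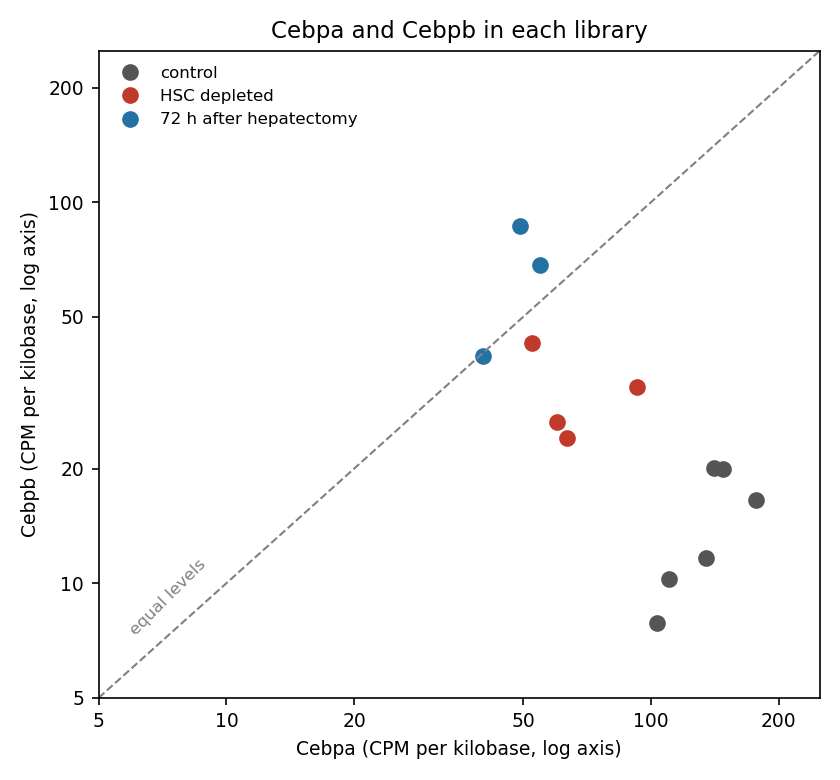
Cebpa (x axis) and Cebpb (y axis) in each of the 13 libraries, in CPM per kilobase of gene length on log axes, with a dashed line of equal levels. Controls lie far below the line, depleted livers between 1.23 and 2.83 times below it, hepatectomised replicate 1 just below it (ratio 1.02) and hepatectomised replicates 2 and 3 above it.

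Among the 3 FOXA factors, forkhead proteins that share a DNA element, Foxa1 fell after depletion, Foxa3 rose after hepatectomy and Foxa2 passed neither test. Foxa1 (chr12:57540631-57546121) was at 12, 15.7 and 19.2 CPM as the lowest, median and highest control. Its values were 7.5, 7.57, 5.89 and 6.93 CPM in depleted replicates 1 to 4 and 10.7, 12.7 and 9.73 CPM in hepatectomised replicates 1 to 3. Every depleted library lay below every control and every hepatectomised library, while the hepatectomised range overlapped the controls. Foxa1 fell by 1.12 ± 0.16 (SE) on the log2 scale in depleted livers, 0.460 times the control level (adjusted p = 0.000175), and that call was kept in all 19 alternatives. In hepatectomised livers its difference from control was -0.53 ± 0.16 (adjusted p = 0.0645). That value passed with library size as the only scaling (adjusted p = 0.0136), by DESeq2 (0.0216) and without control replicate 4 (0.0408).

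Foxa2 (chr2:148042877-148046969) was at 15.8, 21.5 and 25.2 CPM as the lowest, median and highest control. Depleted replicates 1 to 4 had 21.9, 28.6, 20.1 and 21.5 CPM, and hepatectomised replicates 1 to 3 had 13.6, 17.2 and 16.6 CPM. The control range overlapped both. The difference from control was 0.10 ± 0.16 (SE) on the log2 scale in depleted livers, with a 95% interval of -0.25 to 0.44 (adjusted p = 0.685). In hepatectomised livers it was -0.40 ± 0.17 (adjusted p = 0.176), which passed with library size as the only scaling (-0.61, adjusted p = 0.0251).

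Foxa3 (chr7:19013282-19023538) was at 36.6, 48.7 and 69.5 CPM as the lowest, median and highest control. It was 33.9, 34.7, 63.6 and 48.1 CPM in depleted replicates 1 to 4, inside or just under the control range. In hepatectomised replicates 1 to 3 it was 92.8, 70.1 and 114 CPM, above every control, with replicate 2 only just above the highest. Foxa3 rose by 0.87 ± 0.24 (SE) on the log2 scale in hepatectomised livers, 1.83 times the control level (adjusted p = 0.0449). This call was close to the threshold and was lost in 9 of 17 alternatives: with the replicate number as a block (0.92, adjusted p = 0.0696), with library size as the only scaling (0.64, adjusted p = 0.121), by limma-voom (adjusted p = 0.0504), without control replicate 2, 3, 5 or 6 (adjusted p from 0.0725 to 0.0898), without hepatectomised replicate 1 (0.0916) and without hepatectomised replicate 3 (0.56, adjusted p = 0.27). In depleted livers the difference was -0.14 ± 0.23, with a 95% interval of -0.63 to 0.36 (adjusted p = 0.692), -0.42 without depleted replicate 3 and -0.031 without depleted replicate 1.

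The make-up of the summed FOXA transcripts, each per kilobase of gene length, is given as a description. Foxa3 made up 52.4% to 73.4% of the sum in controls, 54.1% to 75.1% in depleted and 75.4% to 84.7% in hepatectomised livers. Foxa1 made up 9.62% to 17.6% in controls, 4.45% to 8.34% in depleted and 4.64% to 8.70% in hepatectomised livers, below every control in both groups. Foxa2 made up 16.4% to 30.0% in controls, 20.5% to 38.4% in depleted and 10.5% to 15.9% in hepatectomised livers. The FOXA sum itself was 32.8 to 47.4 CPM per kilobase in controls, 28.2 to 41.5 in depleted and 45.6 to 65.8 in hepatectomised livers. FOXA1 and FOXA2 are also made by bile duct cells, whose summed markers (8 genes, Krt19 first) were 65.6 to 105 CPM in controls, 62.4 to 98.7 in depleted and 97.3 to 106 in hepatectomised livers. Most of the control sum was Spp1, at a mean of 64.5 CPM, with Krt19 at 0.975 CPM. Of the 7 duct markers tested, Sox9 was higher in depleted livers and Krt19 and Krt7 were higher in hepatectomised livers. Sox9 was at 1.65 to 2.81 CPM in controls and 2.05 to 13.1 CPM in depleted livers, and these ranges overlapped. Its depleted mean was 5.22 CPM with an SD of 5.30. The part of duct cells in the FOXA values was not tested.

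**Figure D3:**
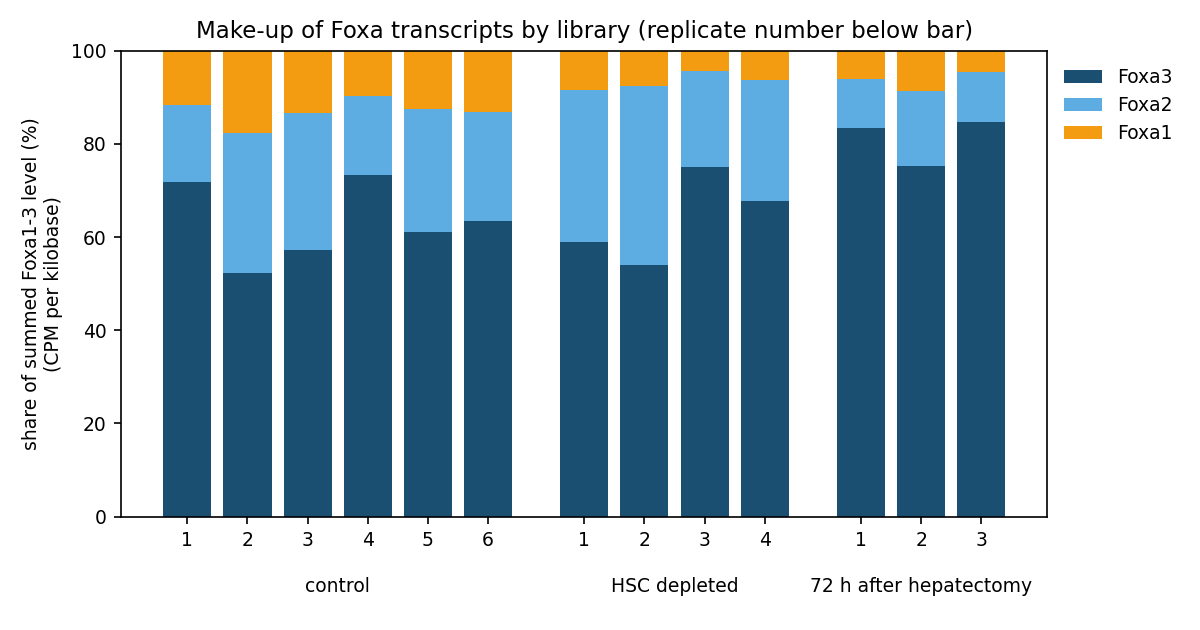
Share of Foxa3, Foxa2 and Foxa1 in their summed level (percent of CPM per kilobase) in each library, 1 bar per library with the replicate number below. Foxa1 takes 9.62% to 17.6% in controls and under 9% in every depleted and hepatectomised library. Foxa3 is above 75% in the 3 hepatectomised libraries and at 75.1% in depleted replicate 3.

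Hnf4a (chr2:163506808-163572910), the nuclear receptor at the centre of the hepatocyte network, had the highest mean level per kilobase of the 9 factors in each group. It was at 534, 658 and 886 CPM as the lowest, median and highest control. Depleted replicates 1 to 4 had 650, 693, 746 and 429 CPM, and hepatectomised replicates 1 to 3 had 908, 697 and 1113 CPM. Both ranges overlapped the controls, and depleted replicate 4 was the lowest of all 13 libraries. The difference from control was -0.11 ± 0.20 (SE) on the log2 scale in depleted livers, with a 95% interval of -0.53 to 0.32 (adjusted p = 0.723). In hepatectomised livers it was 0.42 ± 0.21, with an interval of -0.04 to 0.87 (adjusted p = 0.245), and 0.18 without hepatectomised replicate 3. The intervals leave room for a change of either sign after depletion. The counts are per gene and do not separate transcripts from the adult and fetal promoters of Hnf4a.

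Nr5a2 (chr1:136842571-136960448) encodes LRH-1, a nuclear receptor of bile acid and cholesterol metabolism. It was at 62.3, 77.5 and 94.2 CPM as the lowest, median and highest control. Depleted replicates 1 to 4 had 71.4, 63.7, 49.9 and 34.4 CPM, and hepatectomised replicates 1 to 3 had 90.9, 71.3 and 73.5 CPM. The first 2 depleted replicates lay inside the control range and the other 2 below it. Depleted replicates 1, 2 and 4 were female, and the female controls were at 84.6 to 94.2 CPM. Replicate 3 was male, and the male controls were at 62.3 to 70.3 CPM. Nr5a2 fell by 0.55 ± 0.19 (SE) on the log2 scale in depleted livers, 0.685 times the control level (adjusted p = 0.0384). The call was lost in 9 of 19 alternatives: without the sex term (adjusted p = 0.0611), with library size as the only scaling (0.065), in females alone (0.142), with the replicate block (0.0799), and without control replicate 3, 4, 5 or 6 or depleted replicate 3 (0.0522 to 0.102). Without depleted replicate 4 the difference was -0.38. In hepatectomised livers it was 0.08 ± 0.20 (adjusted p = 0.847), with a sign that changed with the scaling.

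Prox1 (chr1:190118035-190170714), a homeodomain factor of hepatocytes and of lymphatic endothelium, was at 85.3, 143 and 181 CPM as the lowest, median and highest control. Depleted replicates 1 to 4 had 167, 183, 117 and 85.2 CPM, and hepatectomised replicates 1 to 3 had 52.5, 142 and 117 CPM. Both ranges overlapped the controls. The difference was -0.09 ± 0.30 (SE) on the log2 scale in depleted livers, with a 95% interval of -0.73 to 0.56 (adjusted p = 0.85) and a sign that changed with the scaling. In hepatectomised livers it was -0.41 ± 0.32 (adjusted p = 0.471), -0.12 without hepatectomised replicate 1 and -0.80 without replicate 2. Summed lymphatic endothelial markers (6 genes, Pdpn first) were 40.5 to 154 CPM in controls, 47.0 to 105 in depleted and 56.3 to 118 in hepatectomised livers. Reln, which is also on the stellate list, made up most of the control sum, at a mean of 76.5 CPM, and fell to 1.32 CPM in depleted livers (log2 fold change -6.19, adjusted p = 2.74e-05). The other 5 markers did not pass there, with Flt4 at 27.8 CPM in controls and 43.2 in depleted livers and Lyve1 at 12.9 and 35.5. In hepatectomised livers Pdpn was higher, at 2.66 CPM against 0.151 (log2 fold change 4.16, adjusted p = 0.000116). In controls Reln, Flt4 and Lyve1 carried nearly all of the sum, and Pdpn added little. How far the sum reflects lymphatic endothelium was not tested, nor was the part of lymphatic endothelium in the Prox1 values.

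Onecut1 (chr9:74861921-74891781), also called HNF6, a cut-homeodomain factor of hepatocytes and bile ducts, varied most between livers of 1 group. Controls 1 to 6 had 14.8, 80.6, 10.2, 25.0, 46.1 and 10.2 CPM. Depleted replicates 1 to 4 had 27.8, 70.3, 17.7 and 15.7 CPM, and hepatectomised replicates 1 to 3 had 4.26, 23.0 and 4.89 CPM. Its coefficient of variation was 89.1% in controls, 77.7% in depleted and 99.4% in hepatectomised livers, higher than in 96%, 95% and 96.4% of all tested genes. The other 8 factors had coefficients from 11.2% to 44.4%. In each group the library numbered 2 was the highest, although the labels do not tie the numbers together.

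The Onecut1 difference from control was 0.19 ± 0.77 (SE) on the log2 scale in depleted livers, with a 95% interval of -1.48 to 1.87 (adjusted p = 0.871). In hepatectomised livers it was -1.62 ± 0.87, with an interval of -3.52 to 0.28 (adjusted p = 0.279). With the replicate number as a block the hepatectomy value was -1.71 with adjusted p = 0.0367. It was -0.64 without control replicate 2 and -2.77 without hepatectomised replicate 2.

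**Figure D4:**
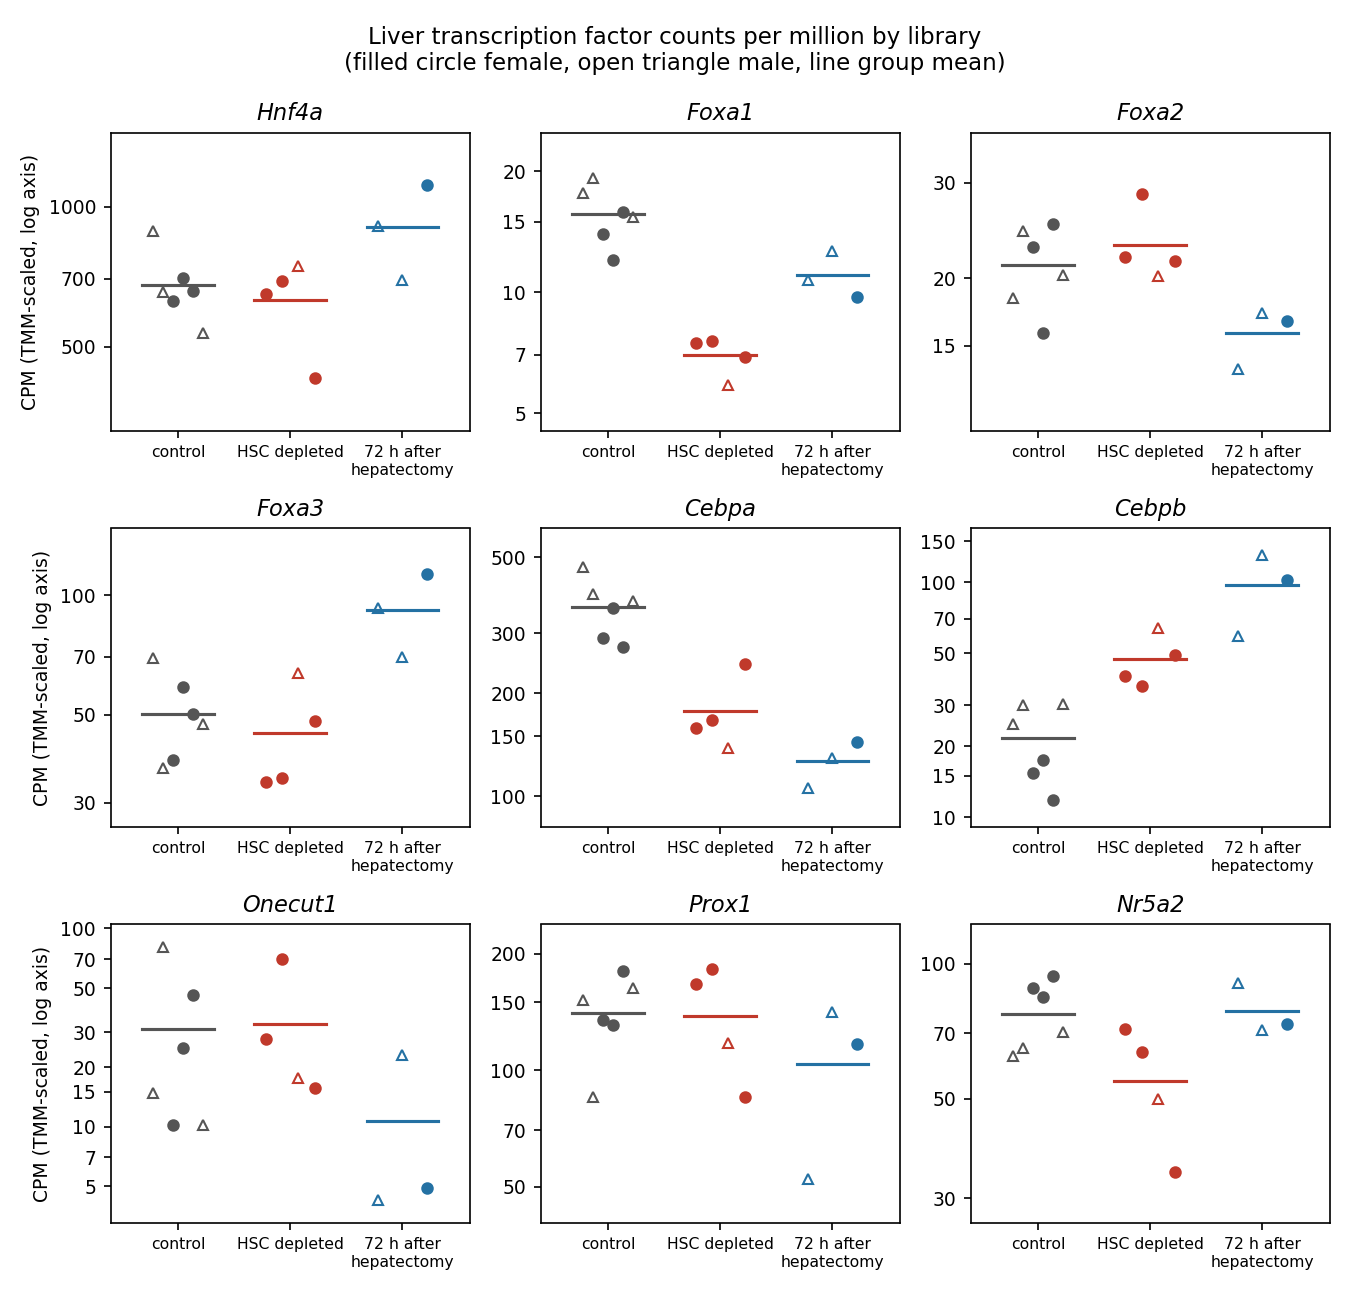
TMM-scaled CPM (log axis) of each factor in the 13 libraries by group, with circles for females, triangles for males and a line at the group mean. All depleted and hepatectomised points lie below the controls for Cebpa and above them for Cebpb, all depleted points lie below the controls for Foxa1, and Onecut1 spans 10.2 to 80.6 CPM in controls alone.

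Hnf4a headed the order of levels per kilobase of gene length in each group, and the order below it was not the same. In controls, Hnf4a at a mean of 140 ± 24.2 CPM per kilobase (SD, n = 6) and Cebpa at 136 ± 26.7 overlapped, and a gap separated them from Foxa3 at 24.6 ± 6.11. Then followed Prox1 (16.8), Cebpb (14.4), Nr5a2 (13.1), Foxa2 (8.92), Onecut1 (7.57) and Foxa1 (4.93), each overlapping the next. In depleted livers Hnf4a at 130 ± 28.9 (SD, n = 4) still overlapped Cebpa at 67.2 ± 17.6. Cebpb came next at 31.5 ± 8.30, and Foxa1 at 2.19 ± 0.244 was last, below the range of every other factor. In hepatectomised livers Hnf4a at 188 ± 43.1 (SD, n = 3) stood alone above Cebpb at 64.9 ± 23.9, Cebpa at 48.1 ± 7.39 and Foxa3 at 45.2 ± 10.7, which overlapped one another. Nr5a2 (13.3), Prox1 (12.4) and Foxa2 (6.67) followed, then Foxa1 (3.46) and Onecut1 (2.61).

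Some factors had male and female controls apart, given here as a description with no test. Nr5a2 was at 62.3 to 70.3 CPM in the 3 male and 84.6 to 94.2 CPM in the 3 female controls. Cebpb was at 24.9 to 30.3 CPM in males and 11.8 to 17.5 CPM in females, and Cebpa at 371 to 466 CPM in males and 273 to 356 CPM in females. These 3 factors had ranges apart between the sexes, as had 20.2% of all tested genes, and the ranges of the other 6 factors overlapped.

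A direct comparison set the depleted livers against the hepatectomised ones. Of the 9 factors, 3 passed, all lower in depleted livers, against 23.4% of all tested genes in either direction and 10.1% lower. Foxa1 differed by -0.59 ± 0.18 (SE) on the log2 scale (adjusted p = 0.0353), Foxa3 by -1.01 ± 0.27 (adjusted p = 0.0181) and Cebpb by -0.86 ± 0.28 (adjusted p = 0.0409). The CPM ranges were apart for Foxa1, Foxa2 and Foxa3, beside 34% of all genes, 18.1% higher and 15.9% lower in depleted livers. Foxa2 was higher in each depleted than in each hepatectomised library, but its difference of 0.50 ± 0.19 did not pass (adjusted p = 0.0826). Hnf4a differed by -0.52 ± 0.23 (adjusted p = 0.127), Nr5a2 by -0.63 ± 0.23 (0.0626), Cebpa by 0.50 ± 0.24 (0.156), Prox1 by 0.32 ± 0.36 (0.556) and Onecut1 by 1.81 ± 1.02 (0.225). The median over the 9 was -0.52, beside -0.05 over all genes. These 3 calls depended on the fit: 0 of the 9 passed when the 6 controls were left out of the model or without hepatectomised replicate 3, and 1 passed without depleted replicate 3 or without hepatectomised replicate 2. Without hepatectomised replicate 3 the differences were -0.66 for Foxa1, -0.68 for Foxa3, -0.42 for Cebpb and -0.25 for Hnf4a, which was then also the median of the 9. Foxa1 was at -0.38 without depleted replicate 3. Cebpa was at 0.32 without depleted replicate 4, Prox1 at 0.055 and 0.67 without hepatectomised replicates 1 and 2, and Onecut1 at 1.18 without depleted replicate 2 and 2.81 without hepatectomised replicate 2. With library size as the only scaling, which raised the all-gene median to 0.27, Foxa1 (-0.27), Foxa3 (-0.66) and Cebpb (-0.53) did not pass, and Foxa2 (0.81, adjusted p = 0.00526) and Cebpa (0.83, adjusted p = 0.0337) did. With the replicate block, Foxa1 (adjusted p = 0.0524) and Cebpb (0.0689) did not pass, and Foxa2 (0.038) and Onecut1 (0.00706) did.

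The genes whose profiles over the 13 libraries lay nearest to each factor that passed a test against control were found by the root-mean-square difference of log2 CPM, each gene taken relative to its control mean, among 10550 candidates. Lactb2 (0.146) and Nfix (0.197) were among the nearest to Foxa1. Slc25a22 (0.156), Gss (0.257) and Gtf2ird2 (0.27) lay nearest to Foxa3, and Nek4 (0.155), Wac (0.173) and Proz (0.175) nearest to Nr5a2. For Cebpa the nearest were Tbcel (0.275), Nr2f2 (0.342) and Fzd7 (0.367). For Cebpb they were Fosl2 (0.378), Junb (0.403), both AP-1 factors, and Saa4 (0.411). Differences between groups are part of this measure, so it describes likeness over these libraries and carries no test.

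Other regulators of the same network were taken from lists drawn up by their known roles. Each count stands beside the shares over all tested genes, 15% lower and 18.9% higher in depleted livers and 2.36% lower and 6.06% higher in hepatectomised livers, and a count near those shares says nothing particular of its list. Of 15 other nuclear receptors, 3 fell and 0 rose in depleted livers, and 2 fell and 1 rose in hepatectomised livers. Their median log2 fold changes were -0.32 and -0.24. Ppara, the fatty acid sensor, fell by 1.45 ± 0.29 (SE) on the log2 scale in depleted livers (adjusted p = 0.0019), and Rxra, the partner of many of these receptors, fell by 0.47 ± 0.12 (adjusted p = 0.00809). Nr2f2 fell by 1.19 ± 0.19 in depleted (adjusted p = 0.000394) and by 1.31 ± 0.20 in hepatectomised livers (adjusted p = 0.00342). Nr2f2 is also made by stellate and endothelial cells, and the part of the stellate cell loss in its value was not tested. In hepatectomised livers the summed stellate markers overlapped the controls. Nr3c1, the glucocorticoid receptor, fell by 0.72 ± 0.16 in hepatectomised livers (adjusted p = 0.0174), and Nr1i2, the xenobiotic receptor PXR, rose by 0.79 ± 0.16 (adjusted p = 0.0108).

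Of 20 other liver transcription factors, 5 fell and 0 rose in depleted livers, and 2 fell and 0 rose in hepatectomised livers, with medians of -0.48 in each. Tbx3, a T-box factor of hepatocytes, fell by 2.14 ± 0.44 (SE) on the log2 scale in depleted livers, from 25.2 to 75.2 CPM in controls to 4.79 to 12.6 CPM (adjusted p = 0.00283). Gata4 fell by 1.00 ± 0.17 (adjusted p = 0.000668) and Nfix by 0.87 ± 0.14 (adjusted p = 0.000531). Gata4 is known to be made by stellate and sinusoidal endothelial cells as well, and how far the stellate cell loss enters its value was not tested. Hhex, a homeobox factor of hepatoblasts and endothelium, fell by 1.28 ± 0.36 in hepatectomised livers (adjusted p = 0.0468), and Nfix by 0.64 ± 0.15 (adjusted p = 0.0224).

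**Figure D5:**
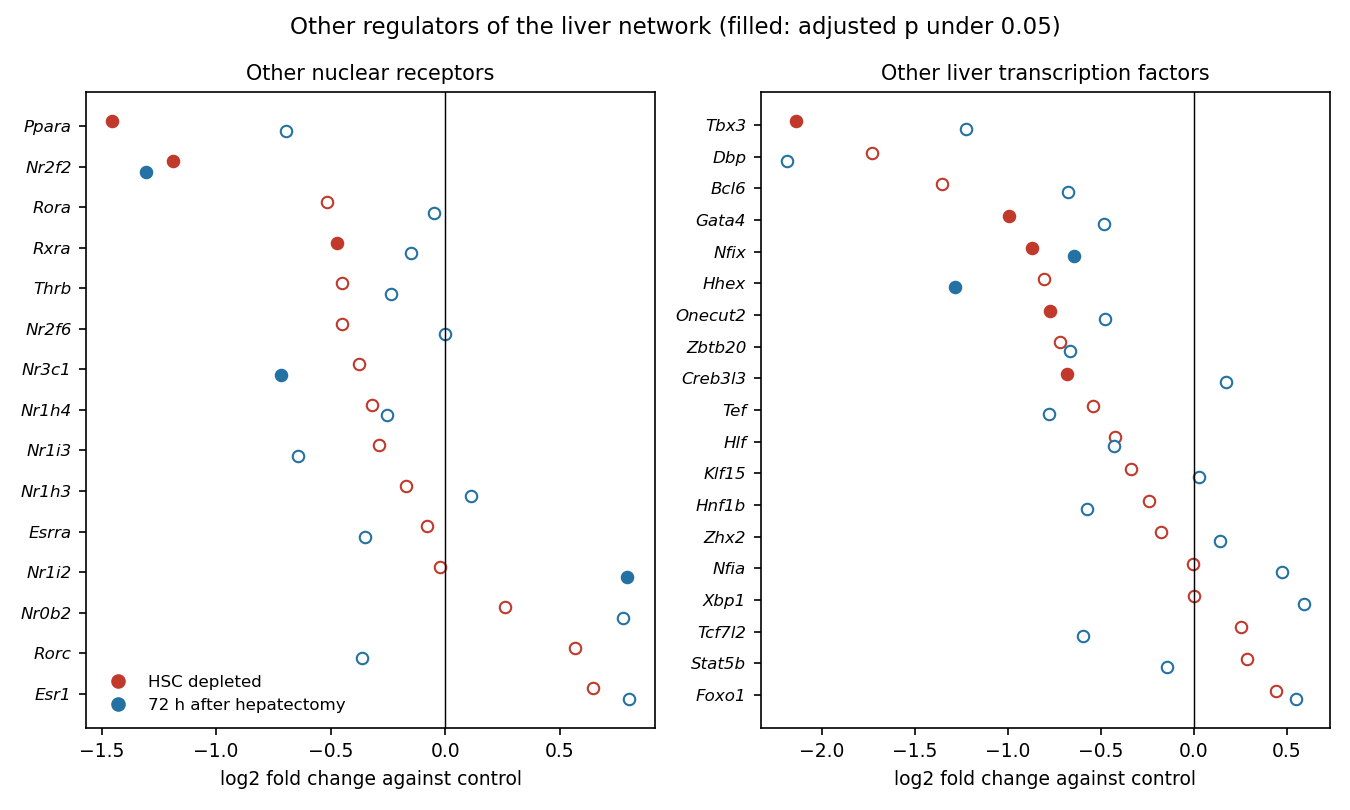
Log2 fold change against control of 15 other nuclear receptors (left) and 19 of the 20 other liver transcription factors (right) in depleted (red) and hepatectomised livers (blue); filled points have an adjusted p under 0.05. In depleted livers the filled points, 3 on the left and 5 on the right, are all below 0.

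Genes known to depend on these factors were described in the same way, as counts and not as evidence for any factor's activity. Of 20 HNF4A-dependent genes, 1 rose and 3 fell in depleted livers and 1 rose in hepatectomised livers, with medians of -0.28 and 0.00, and the share that fell after depletion was that of all tested genes. The ornithine transcarbamylase gene Otc fell by 0.93 ± 0.24 (SE) on the log2 scale in depleted livers (adjusted p = 0.0101) and the apolipoprotein Apoa2 by 0.73 ± 0.23 (0.0248). Pck1, the gluconeogenic enzyme on 3 of the lists, rose by 0.91 ± 0.23 in depleted (adjusted p = 0.00907) and 0.88 ± 0.25 in hepatectomised livers (0.0459). Of 7 NR5A2-dependent genes, 3 fell in depleted livers and 1 in hepatectomised livers, with medians of -1.07 and -0.51. Cyp7a1, the rate-limiting enzyme of bile acid synthesis, fell from 117 to 343 CPM in controls to 5.53 to 27.6 CPM in depleted livers, by 3.70 ± 0.50 (adjusted p = 0.000171), and to 30.8 to 51.0 CPM in hepatectomised livers, by 2.03 ± 0.52 (0.0331). The sterol transporter genes Abcg8 and Abcg5 fell by 1.31 ± 0.30 (adjusted p = 0.00438) and 1.07 ± 0.22 (0.00203) in depleted livers.

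Of 9 C/EBP-dependent metabolic genes, 1 rose and 3 fell in depleted livers and 1 rose and 1 fell in hepatectomised livers, with medians of -0.03 and 0.43. The glycogen enzyme genes Gys2 and Ugp2 fell by 1.12 ± 0.37 (SE) on the log2 scale (adjusted p = 0.0344) and 0.66 ± 0.20 (0.0227) in depleted livers, and the alcohol dehydrogenase Adh1 by 0.76 ± 0.17 (0.00488). Ugp2 fell by 1.09 ± 0.22 in hepatectomised livers (0.0119). Of 10 C/EBP-driven acute-phase genes, 8 rose and 0 fell in each comparison, with medians of 2.14 and 2.50. Lcn2 was at 3.0 to 16.9 CPM in controls, 642 to 1591 CPM in depleted and 827 to 2508 CPM in hepatectomised livers. Its log2 fold changes were 7.18 ± 0.53 (adjusted p = 3.17e-06) and 7.73 ± 0.56 (2.69e-05). The near-identical Saa1 and Saa2, between which reads may have been split, rose by 5.37 ± 0.71 (0.000147) and 5.74 ± 0.88 (0.000388) in depleted livers and by 6.18 ± 0.70 (0.000568) and 7.2 ± 0.93 (0.00135) in hepatectomised livers. Lcn2 is also a neutrophil gene, and S100a8 and S100a9 were higher in both groups, as given above. Their part in the Lcn2 values was not tested in either comparison. The 2 acute-phase genes that did not pass in either comparison, Crp and Hamp, are named after their values were seen. Hamp, which encodes the iron hormone hepcidin, was at 120 to 630 CPM in depleted livers against 756 to 1076 CPM in controls, with log2 fold changes of -1.18 ± 0.47 (adjusted p = 0.073) and, after hepatectomy, -0.58 ± 0.51 (0.523). Crp differed by 0.20 ± 0.13 (0.266) and 0.39 ± 0.14 (0.101). Of 7 FOXA-bound genes, 2 rose in each comparison, Pck1 and Igfbp1, with medians of 0.37 and 0.88. Igfbp1, which encodes a secreted binder of insulin-like growth factors, rose by 2.82 ± 0.76 (adjusted p = 0.0133) and 4.57 ± 0.84 (0.00812).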

How the data were processed

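RNA from 13 whole-liver samples of mice was sequenced. Per the labels' protocols, RNA was extracted with TRIzol, libraries were made with the TruSeq stranded mRNA kit from 500 ng of RNA, and sequencing used 2 flowcell lanes. Per the submitters' processing notes, STAR 2.7.1a, SAMtools 1.15.1, featureCounts 1.6.4 and the mm10 build were used. The strand and multi-mapping settings are not given in the sources used here. The authors deposited raw read counts as 1 table, together with gene lengths. Symbols were matched for 21741 of 22048 IDs, and for 99.72% of these the deposited exons lay on that gene's GRCm38 position. Library totals were 35360991 to 51008737 counts, so 3 counts correspond to 0.0524 to 0.0900 CPM after TMM scaling, which covers counting error only. Libraries of 1 group differed by more than sampling noise (lowest median chi-square 4.60, against 0.455 for a repeated library).

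Counts were tested with edgeR 4.0.16 in R 4.3.3 (filterByExpr, TMM (trimmed mean) scaling, robust quasi-likelihood F-test) with group and sex as terms over all 13 libraries, and two-sided p-values were adjusted by Benjamini-Hochberg over 13831 genes with a threshold of 0.05. The labels give sex but not whether replicates are separate animals or litters, so p-values measure the spread between these samples. On simulated counts of 13319 genes for the depleted against control design, 42.1% of 2-fold and 77.7% of 4-fold changes were recovered, with 4 false calls of 117. Far fewer genes were changed in the simulation than were called in the data (4692). The Benjamini-Hochberg cut-off depends on that share and was stricter in the simulation, so these recoveries do not give those of the data. Log2 CPM used a prior count of 2. Alternatives were no sex term, only the groups compared, DESeq2 size factors, library size alone, DESeq2 1.42.0, limma-voom (limma 3.58.1), no low-count filter, a replicate block, females alone, leaving out each library and a prior count of 0.5.

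The genes and lists were chosen with earlier results of these data known, and the motifs beyond the first 5 were added after the sequences were seen. All 9 factors are named. From each other list, the 3 passing genes with the largest change in each direction and comparison are named, and for each factor that passed against control its 3 nearest profiles among genes with a mean log2 CPM of at least 1. A few genes that the rule names are not reported here. Sequences are from RefSeq.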

Additional observations from a re-analysis of the deposited data

How the results depend on the processing

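The Cebpb and Foxa1 calls after depletion and the Cebpa and Cebpb calls after hepatectomy passed in every alternative run, and the Foxa3, Nr5a2 and direct-comparison calls did not, as stated beside them. In depleted against control livers, 4692 genes were called, 2695 in females alone (2 of the 9 factors in place of 4), and 2960 to 4817 (3 to 4 factors) when single libraries were left out, lowest without depleted replicate 3. In hepatectomised livers 1164 genes were called, 2192 with library size alone, 1939 by DESeq2, 632 with the replicate block and 483 to 1331 (2 to 4 factors) with single libraries left out: 692 without control replicate 1, 742 without control replicate 2 and 483 without hepatectomised replicate 2. In the direct comparison 3236 genes were called, 2105 (0 factors) with only those groups in the fit, and 1709 to 3850 (0 to 4 factors) with single libraries left out, lowest without depleted replicate 3. With library size alone the all-gene median log2 fold change became 0.08, -0.24 and 0.27, and the calls to 2884 higher and 1471 lower after depletion (2614 and 2078 otherwise), 626 and 1566 after hepatectomy (838 and 326) and 3102 and 610 in the direct comparison (1837 and 1399). Signs that turned belonged to values that had not passed: after depletion Prox1 with library size alone (0.0034) and without depleted replicate 4 (0.084), Hnf4a without depleted replicate 4 (0.034), Foxa2 without control replicate 4 (-0.016) and depleted replicate 2 (-0.0077), and Onecut1 without control replicate 3 (-0.09) and depleted replicate 2 (-0.49); after hepatectomy Nr5a2 with library size alone (-0.13) and without hepatectomised replicate 1 (-0.078). With single libraries left out, these differences ranged from -0.25 to 0.034 for Hnf4a, -0.016 to 0.16 for Foxa2, -0.49 to 0.63 for Onecut1 and -0.22 to 0.084 for Prox1 after depletion, and from -0.078 to 0.27 for Nr5a2 after hepatectomy. The cause of these shifts was not tested. Same-numbered libraries were not treated as pairs: deviations from the group means correlated at 0.107 to 0.523 between controls and hepatectomised livers, whose same-numbered livers share their sex, and at -0.191 to 0.084 once sex was removed. For controls and depleted livers the ranges were -0.34 to 0.073 and, with sex removed, -0.098 to 0.416, and for depleted and hepatectomised livers -0.351 to -0.001 and 0.041 to 0.272. With the replicate block 3677 of 4692, 549 of 1164 and 2701 of 3236 calls were kept, out of 3887, 632 and 3170 made. Among the 9 factors, Onecut1 had the largest standard error in each of the 3 comparisons.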
